A study of Homo sapiens with 9 samples.

Results

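The genes described here encode enzymes that attach fatty acids to proteins or remove them. A probe set, a group of array probes read out as 1 signal, was included when its annotation named exactly 1 gene and that gene was on a list of 31: 23 DHHC acyltransferases, 4 thioesterases, 2 N-myristoyltransferases and 2 membrane-bound acyltransferases of secreted proteins. The list was matched by 71 of the 54675 probe sets on the array, and these covered 29 of the 31 genes. After a filter on low signal 58 of the 71 probe sets remained, in 27 genes.

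Palmitate is the main product of fatty acid synthase, the enzyme that the small molecule TVB-3166 is known to inhibit. DHHC acyltransferases (gene names ZDHHC) move palmitate from palmitoyl-CoA to cysteines, which holds proteins such as Ras, G protein subunits and Src family kinases on membranes. Thioesterases take the palmitate off again. N-myristoyltransferases add the shorter myristate to a terminal glycine, usually for the life of the protein, while HHAT palmitoylates Hedgehog ligands and PORCN acylates Wnt ligands before secretion.

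The arrays measured RNA of PANC-1 cells, an established line grown from a human adenocarcinoma of the pancreas. Cells were changed the day after seeding to a medium with charcoal-filtered serum and kept for 72 hours with vehicle (DMSO), 0.1 µM TVB-3166 or 1.0 µM TVB-3166, with 3 Affymetrix HG-U133 Plus 2.0 arrays in each group. Titles set the groups, since the treatment field of the 1.0 µM arrays reads 0.1 µM and a description of 0.1 µM replicate 1 reads DMSO. The DMSO content is given as both 0.05% and 0.5%. Nothing in the labels says that the replicates were separate cultures, so p-values may measure only technical spread.

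The values are MAS5 signals, which have no unit and cannot be set against each other between probe sets. Mean signals trimmed by 2% at each end were 500.1 on all 9 arrays. Changes below are differences of log2(signal + 16) between groups of 3 arrays, and the value after ± is their standard error from limma. Calls needed a Benjamini-Hochberg adjusted p under 0.05, with all 13948 tested genes in the adjustment. Log2 ratios of 3′ to 5′ probe sets ran from -0.22 to -0.096 for GAPDH and from 0.095 to 0.24 for ACTB. Control RNA spiked in at hybridisation (9 probe sets) averaged 11.2 to 12.1 on the log2 scale. It was brighter on 4 arrays than on the other 5, and the brighter 4 came from every group: replicate 2 of DMSO, replicates 1 and 3 of 0.1 µM, and replicate 2 of 1.0 µM. All 6 markers of pancreatic ductal and carcinoma epithelium were above the filter. Of these KRT7 rose (1.06 ± 0.12) and KRT8 (-0.86 ± 0.15) and KRT19 (-0.90 ± 0.17) fell at 1.0 µM, and the summed marker signal was 55898 to 77351 in DMSO and 40195 to 56343 at 1.0 µM. Of the acinar and endocrine markers only CELA3A was above the filter, and none of the hepatocyte markers ALB, APOA2 and TTR was. The prostate markers KLK3, KLK2, HOXB13 and TMPRSS2 summed to 1910 to 1969 in DMSO and 1115 to 1215 at 1.0 µM, where TMPRSS2 fell (-1.39 ± 0.11). Whether these marker shifts have a part in the changes below was not tested. In bulk RNA, fewer cells of a kind and less RNA per cell cannot be told apart.

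At 1.0 µM the RNAs for lipidating enzymes had a median change near 0, and 5 of the 27 tested genes were called. ZDHHC14, ZDHHC18 and NMT1 rose and ZDHHC20 and ZDHHC12 fell, with log2 changes from -0.90 to 0.70. The share called was 18.5%, against 23.2% of all tested genes (12.3% higher and 11% lower). At an unadjusted p under 0.05 there were 7 of 27, against 34.7% of all genes. The median change of the 27 was -0.03 and that of all genes 0.01, and the median absolute change was 0.18 against 0.24. Signals of the DMSO and 1.0 µM groups did not overlap in 9 of the 27 genes, against 37.2% of all genes. The share of members called was thus near that of all genes.

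**Figure D1:**
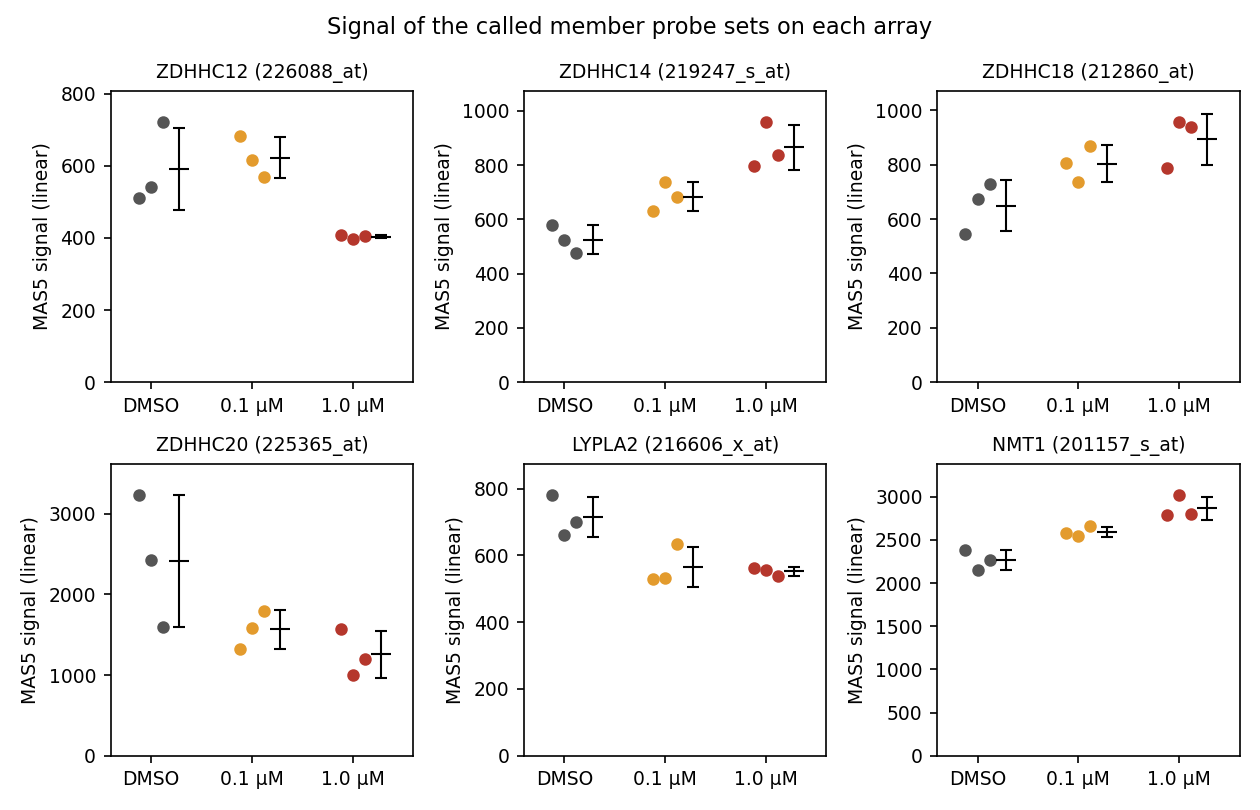
MAS5 signal (linear, from 0) of the 6 member probe sets called at 1.0 µM against DMSO. Dots are single arrays in DMSO, 0.1 µM and 1.0 µM TVB-3166 (3 each), and the bar beside them is the mean ± SD. ZDHHC14, ZDHHC18 and NMT1 are lowest in DMSO, and ZDHHC12 is low only at 1.0 µM.

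ZDHHC14 (Entrez gene 79683), a DHHC acyltransferase of the same subfamily as ZDHHC9 and ZDHHC18, had signals of 578.3, 524.3 and 474.9 in DMSO, 630.5, 738.8 and 683.7 at 0.1 µM, and 798.5, 959.9 and 837.9 at 1.0 µM. The 3 groups were in the order of dose without any overlap. The change at 1.0 µM was 0.70 ± 0.12, a rise of 1.63-fold (limma adjusted p = 0.00101). At 0.1 µM it was 0.37 ± 0.12 (adjusted p = 0.0601), and between the doses it was 0.33 ± 0.12 (adjusted p = 0.268). Its other probe sets above the filter were at 0.43 and 0.21, neither of them called. Averaged over its 3 probe sets, ZDHHC14 was still called but at 0.45.

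ZDHHC18 (Entrez gene 84243), an enzyme of the Golgi that acylates Ras proteins, had signals of 544.7, 672.9 and 728.4 in DMSO, 807.4, 734.9 and 870.1 at 0.1 µM, and 786.0, 957.9 and 938.1 at 1.0 µM. Every treated array was above every DMSO array, and the treated groups overlapped each other. Its change was 0.46 ± 0.13 at 1.0 µM (limma adjusted p = 0.0232) and 0.31 ± 0.13 at 0.1 µM (adjusted p = 0.154). The call was lost without DMSO replicate 1 (0.34, adjusted p = 0.0905), without 1.0 µM replicate 2 (0.41, 0.0593) or without 1.0 µM replicate 3 (0.42, 0.0856). It was lost as well with median centring (adjusted p = 0.0591) and with the mean of its probe sets (0.37, 0.129).

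ZDHHC20 (Entrez gene 253832) encodes a plasma membrane enzyme that palmitoylates the EGF receptor. Its signals were 3229.6, 2421.5 and 1598.2 in DMSO, 1318.4, 1582.3 and 1794.4 at 0.1 µM, and 1569.9, 1001.0 and 1202.1 at 1.0 µM. The DMSO arrays spread widely (SD 816, against 238 at 0.1 µM and 288 at 1.0 µM), and DMSO replicate 3 lay close to the highest 1.0 µM array. The fall at 1.0 µM, at -0.90 ± 0.23 (limma adjusted p = 0.0132), left 0.54 times the DMSO level. At 0.1 µM the change was -0.58 ± 0.23 (adjusted p = 0.131). Without DMSO replicate 1, the array with the highest signal, the 1.0 µM value was -0.66 (adjusted p = 0.0504) and the 0.1 µM value -0.34 (adjusted p = 0.401). Without DMSO replicate 3 the 0.1 µM value was called (-0.84, adjusted p = 0.0232). The second, dimmer probe set had 177.3, 253.8 and 237.2 in DMSO and 156.0, 159.6 and 146.6 at 1.0 µM, also without overlap (-0.48 ± 0.16, adjusted p = 0.0646 over all probe sets).

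ZDHHC12 (Entrez gene 84885), an acyltransferase of the endoplasmic reticulum and Golgi, differed from the others in its dose pattern. Its signals were 509.8, 542.2 and 722.3 in DMSO, 682.8, 615.4 and 569.0 at 0.1 µM, and 407.1, 397.9 and 406.3 at 1.0 µM. The DMSO and 0.1 µM arrays overlapped, and all 1.0 µM arrays were below both. The change was -0.52 ± 0.14 at 1.0 µM (limma adjusted p = 0.0168) and 0.08 ± 0.14 at 0.1 µM (adjusted p = 0.766). The difference between the doses was -0.60 ± 0.14 (adjusted p = 0.0681). This difference passed the threshold without DMSO replicate 3 (adjusted p = 0.0314). It also passed with array weights (-0.57, adjusted p = 0.00552), where all genes called between the doses went from 114 to 1953. It missed the threshold in every other refit, among them those without 0.1 µM replicate 1 (adjusted p = 0.322), without 1.0 µM replicate 3 (0.238), without trend (0.143) and with the replicate block (0.18). The refit in the lower spike signal set has 0.1 µM replicate 2 alone and cannot judge this difference. ZDHHC12 had only this probe set.

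NMT1 (Entrez gene 4836), the more widely expressed of the N-myristoyltransferases, had signals of 2386.7, 2152.1 and 2266.0 in DMSO, 2576.6, 2540.5 and 2655.6 at 0.1 µM, and 2786.3, 3017.6 and 2796.7 at 1.0 µM. The groups were in the order of dose with no overlap. NMT1 rose by 0.34 ± 0.08 at 1.0 µM, or 1.26-fold (limma adjusted p = 0.0115), and stood at 0.19 ± 0.08 at 0.1 µM (adjusted p = 0.169). Its other, dimmer probe sets were at -0.17 and 0.17. With the mean of the 3 probe sets NMT1 was at 0.11 (adjusted p = 0.565), and with median centring at 0.31 (adjusted p = 0.102). NMT2, the second enzyme of the pair, was at 0.11 ± 0.13 (95% interval -0.18 to 0.41).

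The 1.0 µM changes of the 5 called genes had the same sign in both spike signal sets. In the lower and the higher set they were 0.63 and 0.85 for ZDHHC14, 0.44 and 0.50 for ZDHHC18, -0.72 and -1.26 for ZDHHC20, -0.56 and -0.43 for ZDHHC12 and 0.26 and 0.48 for NMT1. Of DMSO and of 1.0 µM, 1 array each lies in the higher set. Within the lower set, with 2 arrays of each, limma called ZDHHC14 alone among the 27. There ZDHHC12, NMT1, ZDHHC18 and ZDHHC20 had adjusted p from 0.0711 to 0.134.

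Upstream sequences are shown for the called genes so that the rising and falling members can be compared. RefSeq (GRCh38.p14) promoter windows were matched for 4 of the 5, and ZDHHC18 had no entry. Each line holds the 250 bases before the start site, 5′ to 3′ on the strand of the gene. They lie at chr6:157380940-157381189 (plus strand, ZDHHC14), chr17:45061067-45061316 (plus strand, NMT1), chr13:21459304-21459553 (minus strand, ZDHHC20) and chr9:128724128-128724377 (minus strand, ZDHHC12). Capitals mark every match, on either strand, to the GC box GGGCGG, the CCAAT box CCAAT, the ETS core CCGGAAG, the E-box CACGTG, the sterol regulatory element TCACNCCAC or the C/EBP-ATF element TGATGNAA.
ZDHHC14: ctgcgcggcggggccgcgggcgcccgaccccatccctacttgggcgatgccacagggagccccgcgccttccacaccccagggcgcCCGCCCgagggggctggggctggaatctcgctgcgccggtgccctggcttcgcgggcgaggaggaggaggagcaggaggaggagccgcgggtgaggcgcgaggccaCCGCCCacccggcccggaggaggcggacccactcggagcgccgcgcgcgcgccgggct
NMT1: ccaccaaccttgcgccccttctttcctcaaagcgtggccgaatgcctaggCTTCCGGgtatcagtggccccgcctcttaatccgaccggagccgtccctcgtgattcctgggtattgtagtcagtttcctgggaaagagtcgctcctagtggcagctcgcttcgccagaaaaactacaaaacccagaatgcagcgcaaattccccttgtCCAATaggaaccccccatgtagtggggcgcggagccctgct
ZDHHC20: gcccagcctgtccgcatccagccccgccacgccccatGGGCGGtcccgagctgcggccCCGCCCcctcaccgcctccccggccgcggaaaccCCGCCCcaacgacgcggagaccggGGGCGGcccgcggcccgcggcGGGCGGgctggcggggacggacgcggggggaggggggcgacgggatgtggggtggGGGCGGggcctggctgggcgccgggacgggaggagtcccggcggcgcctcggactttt
ZDHHC12: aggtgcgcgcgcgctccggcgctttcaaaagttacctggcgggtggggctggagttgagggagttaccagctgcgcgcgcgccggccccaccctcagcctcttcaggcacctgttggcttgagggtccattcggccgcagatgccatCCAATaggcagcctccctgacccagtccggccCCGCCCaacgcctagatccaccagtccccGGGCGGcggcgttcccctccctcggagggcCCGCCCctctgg
The GC box was found 6 times in ZDHHC20, 3 times in ZDHHC12, 2 times in ZDHHC14 and 0 times in NMT1. ZDHHC12 and NMT1 also had 1 CCAAT box each, and NMT1 had 1 ETS core. The E-box, the sterol element and the C/EBP-ATF element had no match in these windows. Of all 35116 RefSeq windows, 42.6% held a GC box, 32.0% a CCAAT box, 8.52% an ETS core, 6.34% an E-box, 0.883% the sterol element and 3.14% the C/EBP-ATF element. Among the 32 windows of 24 listed genes these counts were 20, 7, 4, 4, 0 and 0. GC content was 79.6% in ZDHHC14, 82.4% in ZDHHC20, 70.0% in ZDHHC12 and 57.6% in NMT1, against a median of 58% over all windows. A match of letters is not a bound site.

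Among the DHHC acyltransferases 21 of 23 genes were tested, and 4 were called at 1.0 µM (19.0%, near the 23.2% of all genes). The other 17 were not called, with changes from -0.26 to 0.22. The nearest to the threshold were ZDHHC16 (-0.24 ± 0.09, limma adjusted p = 0.0815) and ZDHHC6 (0.22 ± 0.09, adjusted p = 0.0825), an enzyme of the endoplasmic reticulum that works with SELENOK. ZDHHC6 had signals of 2543.3, 2682.2 and 2309.5 in DMSO and 2902.9, 3001.2 and 2875.7 at 1.0 µM, and ZDHHC16 had 3159.6, 2995.9 and 2773.7 against 2341.2, 2740.8 and 2496.6. Neither pair of groups overlapped, which held for 37.2% of all genes. Both genes were called when the spike signal set was fitted as a block, where all genes called went from 3240 to 4363. ZDHHC3 and ZDHHC7, related Golgi enzymes with many substrates, were at -0.25 ± 0.12 and -0.03 ± 0.16. ZDHHC9, which acylates HRAS and NRAS together with GOLGA7, was at 0.09 ± 0.10, and the plasma membrane enzyme ZDHHC5 at 0.18 ± 0.09. ZDHHC17 and ZDHHC13, which carry ankyrin repeats, were at -0.10 ± 0.10 and -0.11 ± 0.12. Over the 9 arrays signals ran from 407.5 to 632.8 for ZDHHC3, 2600.2 to 3764.3 for ZDHHC7 and 1142.6 to 1400.1 for ZDHHC9. They ran from 1983.8 to 2588.6 for ZDHHC5, 1665.1 to 2072.9 for ZDHHC17 and 1017.9 to 1399.6 for ZDHHC13.

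The precision differed widely between these genes. For ZDHHC4, with signals from 3510.2 to 4329.4 over the 9 arrays, the 95% interval of the 1.0 µM change was -0.08 to 0.31. For ZDHHC2, with 399.2 to 1045.6, it was -0.94 to 0.42. For ZDHHC22, with signals of only 33.0 to 87.1, it was -0.64 to 0.72. The interval is thus narrow for ZDHHC4 and wide for ZDHHC22 and for the probe set used for ZDHHC2. The other ZDHHC2 probe sets above the filter were at 0.05 (-0.24 to 0.35) and -0.36 (-0.91 to 0.20). ZDHHC11 (signals of 4.7 to 13.4) and ZDHHC15 (10.9 to 32.9) stayed below the filter, which lies at a signal of about 38.95, and were not tested.

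**Figure D2:**
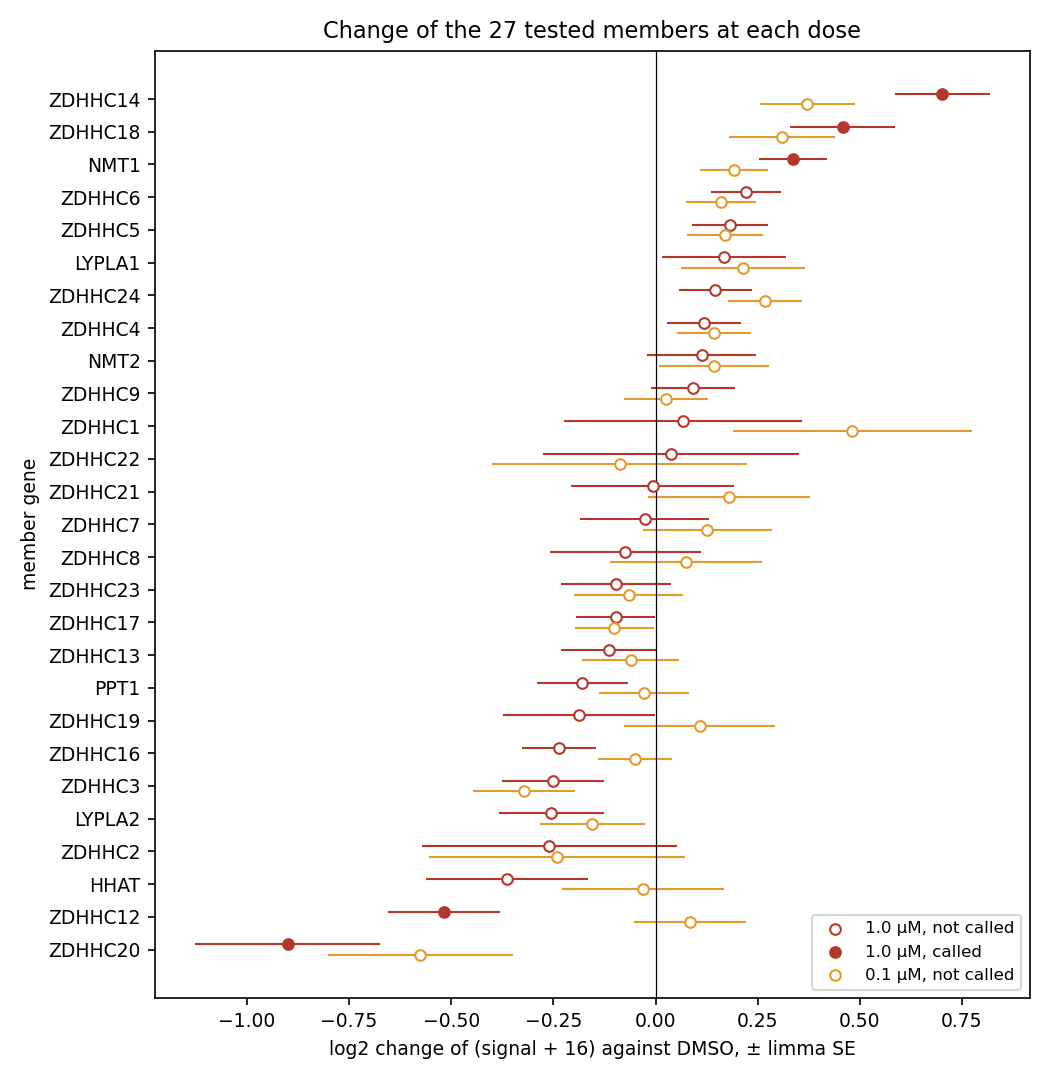
Log2 change of (signal + 16) against DMSO for the 27 tested genes, ordered by their change at 1.0 µM, with limma standard errors (3 arrays per group). Filled points are called at an adjusted p under 0.05: 5 at 1.0 µM and 0 at 0.1 µM, from ZDHHC20 at -0.90 to ZDHHC14 at 0.70.

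None of the 3 tested thioesterase genes was called at 1.0 µM by limma, where 23.2% of all genes were. In the probe sets used for the genes, 0 of the 3 had an unadjusted p under 0.05. Of the refits, array weights and the fit without 1.0 µM replicate 2 called LYPLA2. All genes called went from 3240 to 4696 and 3329 in these refits. LYPLA1 and LYPLA2 encode the cytosolic acyl-protein thioesterases and PPT1 the lysosomal enzyme. LYPLA1 was at 0.17 ± 0.15, LYPLA2 at -0.26 ± 0.13 (adjusted p = 0.185) and PPT1 at -0.18 ± 0.11 (adjusted p = 0.289). The second LYPLA1 probe set was at 0.25 ± 0.09 (adjusted p = 0.0872 over all probe sets). It read 4770.1, 4354.8 and 4591.3 in DMSO and 5471.4, 5129.2 and 5750.4 at 1.0 µM, without overlap. PPT1 had signals of 6774.3, 7621.2 and 5653.9 in DMSO and 5799.5, 6041.9 and 5739.9 at 1.0 µM, and these overlapped. For LYPLA2 all 4 probe sets had lower means at 1.0 µM, with changes from -0.49 to -0.12. One of them, not the brightest, was called among all probe sets (-0.36 ± 0.11, adjusted p = 0.0444). It read 780.3, 662.3 and 701.3 in DMSO, 528.5, 531.9 and 633.3 at 0.1 µM and 563.4, 557.1 and 537.1 at 1.0 µM, so every treated array was below every DMSO array. The second LYPLA1 probe set and all LYPLA2 probe sets have names ending in x_at, which marks probes that can also bind related transcripts. The 3 probe sets of PPT2 name neighbouring genes as well and were left out.

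HHAT, the Hedgehog acyltransferase, was at -0.36 ± 0.20 at 1.0 µM (limma adjusted p = 0.221) and -0.03 ± 0.20 at 0.1 µM. Its signals were 138.7, 249.2 and 187.4 in DMSO, 194.8, 168.8 and 184.8 at 0.1 µM, and 149.5, 137.2 and 138.4 at 1.0 µM. The 1.0 µM arrays lay close together at the low end of the wide DMSO range, and all were below the 0.1 µM arrays. PORCN was not analysed here.

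Counted by probe set, 6 of 58 were called at 1.0 µM, 3 higher and 3 lower, against 17.6% of all 32768 probe sets tested. Of the 17 genes with several probe sets above the filter, 8 had all changes of 1 sign and 9 had both signs. The 4 probe sets of ZDHHC3 lay between -0.29 and -0.20, whereas those of ZDHHC17 ran from -0.10 to 0.58 and those of ZDHHC21 from -0.51 to 0.01. ZDHHC21 palmitoylates Src family kinases such as FYN, and it had 5 probe sets above the filter, of which 0 were called. For ZDHHC18 the dimmer probe set was at 0.28 at 1.0 µM but at -0.56 at 0.1 µM, against 0.31 for the probe set used. These spreads limit what a single probe set can say of its gene.

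**Figure D3:**
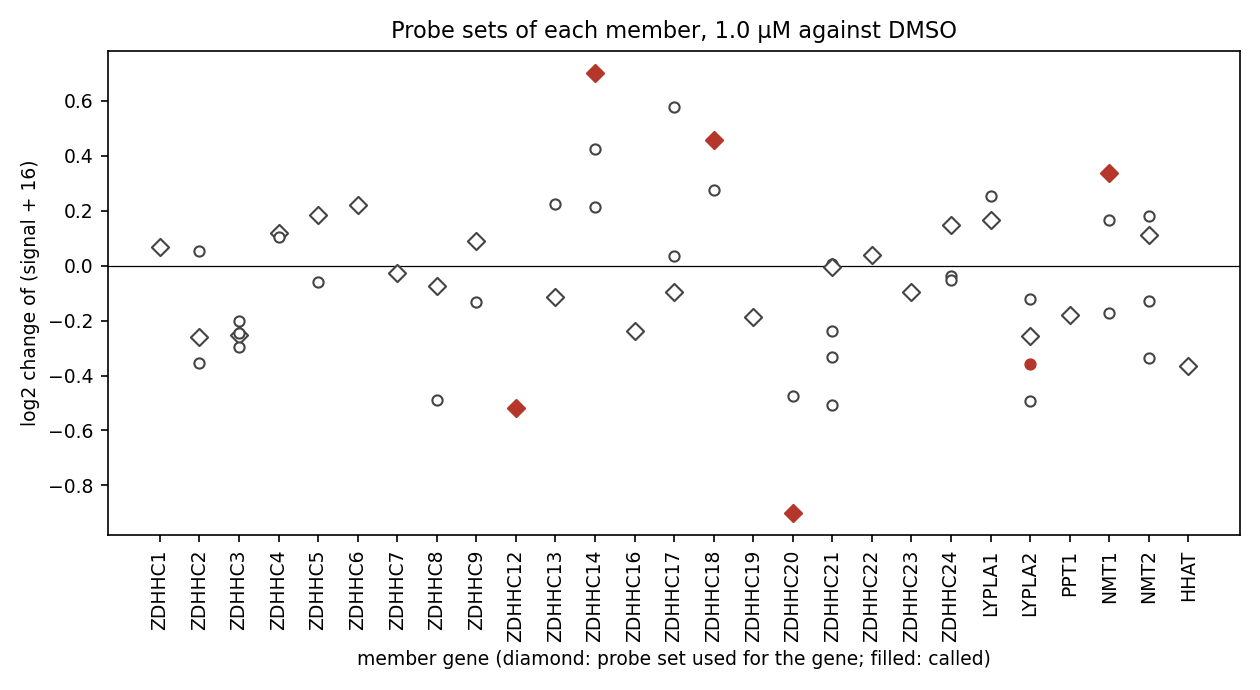
Log2 change of (signal + 16) at 1.0 µM against DMSO for each of the 58 member probe sets above the filter. Diamonds are the probe sets used for the gene (highest mean level), circles the others, and filled symbols are called, 6 in all.

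At 0.1 µM limma called 0 of the 27 genes, against 12% of all genes (6.89% higher and 5.11% lower), and 0 of their 58 probe sets, against 8.25% of all probe sets. Of the 27, 6 had an unadjusted p under 0.05, against 25.4% of all genes: ZDHHC14, ZDHHC24, ZDHHC3, ZDHHC20, ZDHHC18 and NMT1. ZDHHC24 was at 0.27 ± 0.09 (adjusted p = 0.0789), with signals of 1269.1, 1327.4 and 1476.5 in DMSO and 1735.8, 1622.3 and 1553.0 at 0.1 µM, which did not overlap. The name of this probe set also ends in x_at. Its other probe sets above the filter were at 0.30 ± 0.18 and -0.04 ± 0.19, both overlapping DMSO. ZDHHC3 was at -0.32 ± 0.12 (adjusted p = 0.122), and its 4 probe sets ran from -0.42 to 0.11. In 8 of the 27 genes the groups did not overlap, against 30% of all genes. Fits with array weights called 3 genes (ZDHHC18, ZDHHC20 and ZDHHC24), where all genes called went from 1674 to 2466. The mean of probe sets called ZDHHC20, where all genes called were 1658. Without DMSO replicate 3, 2 were called (ZDHHC20 and ZDHHC24), and without 1.0 µM replicate 2 ZDHHC14 was. All genes called were 1352 and 2003 in these fits. Both doses are compared with the same DMSO arrays, so their changes are not independent.

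Between the doses 0 of the 27 genes were called by limma (2 at an unadjusted p under 0.05, ZDHHC12 and ZDHHC14, against 12.4% of all genes), where 0.817% of all genes were called (0.387% higher and 0.43% lower). Of the 58 probe sets 0 were called, against 0.281% of all probe sets. Array weights called ZDHHC12 and ZDHHC14, where all genes called went from 114 to 1953. Groups did not overlap in 8 of the 27, against 18.5% of all genes. The medians of the 27 were 0.08 at 0.1 µM and -0.05 for 1.0 µM against 0.1 µM. ZDHHC12, described above, lay nearest to the threshold.

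The genes around these enzymes were followed through 11 lists of 224 genes, 196 of them tested. Of these 45 were called at 1.0 µM, where 23.2% of all genes were. The lists were chosen with earlier results of these data known and were counted, not tested as sets. For acyl-CoA supply, which provides the fatty acid that the transferases use, 5 of 16 genes rose at each dose and 0 fell, where 12.3% of all genes rose and 11% fell at 1.0 µM and 6.89% and 5.11% at 0.1 µM. The median of the list was 0.20 at 1.0 µM. FASN itself rose by 1.01 ± 0.21 at 1.0 µM and 1.25 ± 0.21 at 0.1 µM (limma adjusted p = 0.0039 and 0.00181). ACSL1, which activates long-chain fatty acids to CoA esters, rose by 1.04 ± 0.20 and 1.28 ± 0.20. FASN was not called within the lower spike signal set (0.75). ACACA and ACLY, which make malonyl-CoA and acetyl-CoA, rose by 0.66 ± 0.14 and 0.47 ± 0.15 at 1.0 µM (adjusted p = 0.00575 and 0.037). ACLY lost its call in 6 of the 9 fits with an array left out and kept it in only 9 of 14 other refits.

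Partners of the transferases were not called at 1.0 µM, where 23.2% of all genes were. GOLGA7 (-0.06 ± 0.10) and SELENOK (0.13 ± 0.09) were the 2 tested of 4 listed. All 4 genes of N-myristoylation partners, the methionine aminopeptidases that expose the glycine and ACBD6, were tested and 0 called, from -0.17 for METAP2 to 0.33 for METAP1D. Of the 6 tested chaperones of myristoylated and prenylated cargo, such as UNC119 and PDE6D, 0 were called. Lists this short can hold 0 calls at the share of all genes.

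Other deacylases went both ways at 1.0 µM, with 2 of 9 rising and 2 falling, where 23.2% of all genes were called. At 0.1 µM 0 were called by limma, where 12% of all genes were. LYPLAL1, a relative of LYPLA1, rose by 0.40 ± 0.10 (limma adjusted p = 0.00978). ABHD10, a mitochondrial depalmitoylase, fell by 0.36 on the log2 scale (adjusted p = 0.0178) and ABHD17A, a depalmitoylase of NRAS, by 0.35 (adjusted p = 0.0485). ABHD10 lost its call without DMSO replicate 1, DMSO replicate 2 or 1.0 µM replicate 3, and within the lower spike signal set. ABHD17A lost its call in 6 of the 9 fits with an array left out and in 8 of 14 other refits. The other riser, MGLL (1.05 ± 0.15), is a lipase of monoacylglycerol.

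Among enzymes of the other lipid anchors, FDPS moved furthest of the called genes named here. Of 15 prenylation genes 2 rose at each dose and 0 fell (13.3% called, against 23.2% of all genes at 1.0 µM and 12% at 0.1 µM). They were FDPS, which makes farnesyl diphosphate (1.47 ± 0.18 at 1.0 µM), and DHDDS, which makes dolichol precursors rather than protein anchors (0.55 ± 0.10). No subunit of the prenyltransferases was called. Of 31 genes for glycosylphosphatidylinositol (GPI) anchors, 5 rose and 2 fell at 1.0 µM (22.6% called, near the 23.2% of all genes) and 3 rose at 0.1 µM (9.68%, against 12% of all genes). PGAP2, which remodels the anchor lipid, rose by 0.44 ± 0.09 (limma adjusted p = 0.00491), and the mannosyltransferase gene PIGZ fell by 0.73 on the log2 scale (adjusted p = 0.00289). DPM3, a subunit of the enzyme that supplies the mannose donor, rose by 0.41 ± 0.10, and PIGN, which adds ethanolamine phosphate, fell by 0.67 on the log2 scale (adjusted p = 0.0144 and 0.0175). The DPM3 call was lost without DMSO replicate 2, with median centring and within the lower spike signal set. For PIGN the call was lost without DMSO replicate 1, DMSO replicate 3 or 1.0 µM replicate 1.

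Genes for the proteins that carry these lipids were called in both directions. Of 63 palmitoylated substrates 10 rose and 4 fell at 1.0 µM (22.2% called), and of 40 N-myristoylated substrates 5 rose and 6 fell (27.5%), both near the 23.2% of all genes called, with medians of 0.06 and -0.03. FYN, a Src family kinase that carries both lipids, had signals of 308.6, 246.2 and 261.2 in DMSO, 590.5, 613.4 and 617.8 at 0.1 µM and 902.9, 818.6 and 756.8 at 1.0 µM. FYN rose by 1.55 ± 0.12 at 1.0 µM (limma adjusted p = 3.28e-06), and its 3 probe sets were at 1.51 to 2.65. AIFM2, a myristoylated oxidoreductase that protects against ferroptosis, rose by 1.63 ± 0.12 (adjusted p = 3.02e-06), and the kinase subunits PRKACB and PRKAB2 by 0.74 ± 0.09 and 0.76 ± 0.10. MARCKS and BASP1, myristoylated proteins that bind acidic phospholipids, fell by 0.82 and 0.62 on the log2 scale (adjusted p = 0.00625 and 0.00275). CKAP4, a palmitoylated protein of the endoplasmic reticulum, fell (-0.55 ± 0.10), and GNA13, a palmitoylated G protein subunit, rose by 0.50 ± 0.11 (adjusted p = 0.00525). EGFR, a substrate of ZDHHC20, rose by 0.53 ± 0.14 (adjusted p = 0.0161), and HRAS was at -0.03 ± 0.18. RAP2B rose by 0.78 ± 0.14, though its 4 probe sets spread from 0.05 to 0.83. One called gene of the list, CERT1, is a ceramide transfer protein whose place on the list is doubtful.

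Among Wnt ligands and the carrier WLS, 12 of 20 were tested, 1 rose and 2 fell at 1.0 µM (25% called, near the 23.2% of all genes). WNT4 had signals of 10.5, 4.7 and 57.5 in DMSO, 70.8, 75.5 and 124.4 at 0.1 µM and 100.2, 158.8 and 119.2 at 1.0 µM. Every treated array was above every DMSO array, and 2 of the DMSO arrays were below the filter level of about 38.95. The DMSO mean of 24.2 was below it too, so WNT4 was tested only because of its treated arrays. Its change of 2.03 ± 0.42 (limma adjusted p = 0.00412) is thus no support apart from that selection. The change also depends on the added constant and ran from 1.14 to 3.00 over the refits with other settings. Within the lower spike signal set WNT4 was not called. WNT5B and WNT9A fell by 0.72 and 0.84 on the log2 scale (adjusted p = 0.00206 and 0.00236). Of the 5 tested genes of Hedgehog ligands and release, DISP2 alone was called (0.66 ± 0.17), a share of 20% against 23.2% of all genes. The DISP2 call was lost without 1.0 µM replicate 1 or 3.

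**Figure D4:**
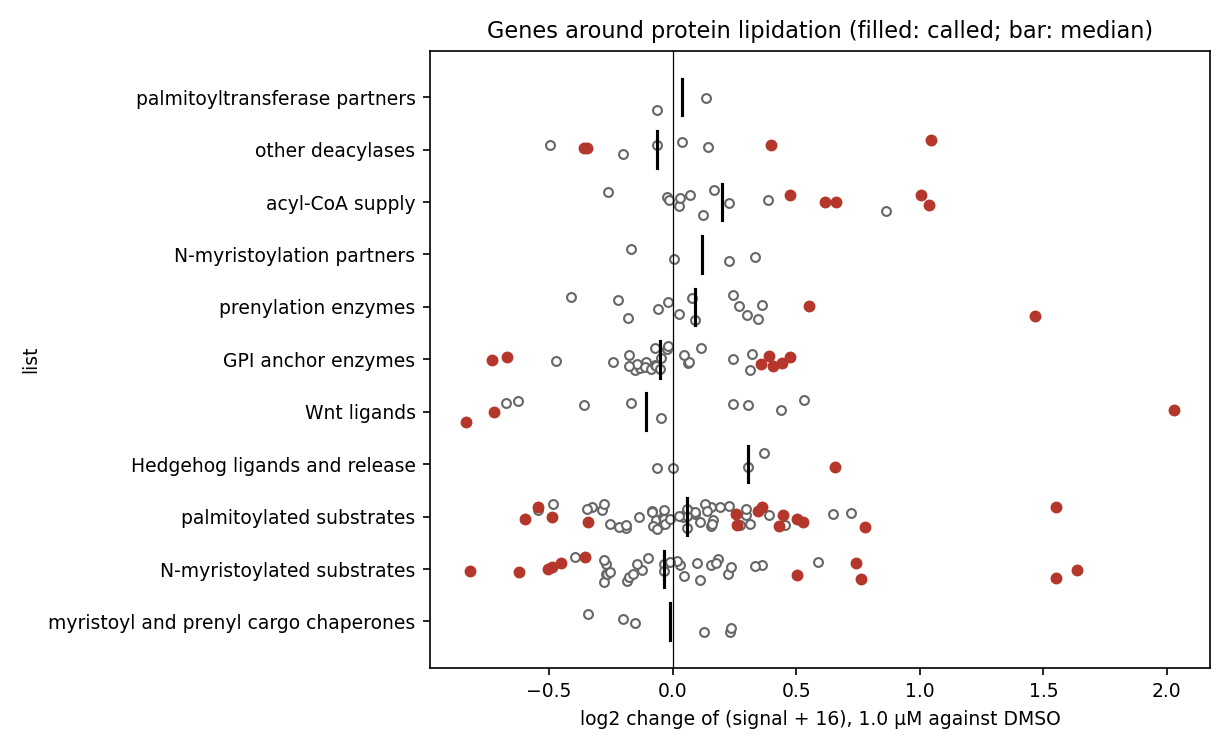
Log2 change of (signal + 16) at 1.0 µM against DMSO for the tested genes of 11 lists around protein lipidation. Each dot is a gene, filled where called, and the bar is the median of the list, which lies at 0.20 for acyl-CoA supply and 0.06 for palmitoylated substrates. Vertical scatter within a list carries no value.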

How the data were processed

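RNA from 9 arrays (3 groups of 3) was analysed. Per the submitters' processing notes, the deposited intensity of each probe set is a MAS5 signal on a linear scale, version not given in the sources used here; the authors' trimmed means are equal across arrays. Values were turned into log2(signal + 16), which makes folds of dim genes smaller. Symbols came from the platform annotation, updated by Entrez identifier (41037 of 41091 probe sets with 1 symbol). The dimmest 40% of probe sets by mean log2 level were dropped, leaving 32768, and the brightest one stood for its gene (13948 genes). The 3 groups were fitted with limma 3.58.1 in R 4.3.3 (lmFit, eBayes with trend, 6 residual and 5.93 prior degrees of freedom), Benjamini-Hochberg over all genes, and again over all probe sets. The code was tested on simulated data, with 100 genes changed by 0.5 and 100 by 1 on the log2 scale. It called 26% and 63% of them in the right direction, so a gene not called may still have changed. Far fewer genes changed there than were called at 1.0 µM, so these shares do not carry over directly. Members and lists were chosen with earlier results of these data known. By rule, members with any called probe set are given for every array, and up to 4 called genes with the smallest p at 1.0 µM are named from each list; array values of other members, and all further names, were chosen after their values were seen. Replicate numbers did not pair the arrays: 1 of 9 same-numbered pairs had correlated deviations over 0.1.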

Additional observations from a re-analysis of the deposited data

How the results depend on the processing

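Limits come first from the number of arrays, 3 per group, and from probe sets of 1 gene that differ. Median shifts over all genes stayed within 0.05 under both scalings; the 1.0 µM changes of the 5 called members kept their sign in every refit. At 0.1 µM, where none of them was called, ZDHHC18 went from 0.31 to -0.12 with the mean of probe sets and ZDHHC12 from 0.08 to -0.01 without DMSO replicate 1. Where values below moved, the cause was not tested unless the setting itself has fewer arrays or a stricter rule.

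At 1.0 µM against DMSO the 5 members called became 3 with median centring or with the mean of probe sets. They became 8 with array weights, where all genes called went from 3240 to 4696. In the lower spike signal set (2 arrays each of DMSO and 1.0 µM, and 0.1 µM replicate 2 alone) 1 was called. With a fold of at least 1.5 as well 2 were called. The count ranged from 3 to 6 when each array was left out (3 without DMSO replicate 1). The same 5 genes were called with either added constant (1 or 64), either filter (none or the 60th percentile) and quantile normalization. They were also called with eBayes without trend or robust, only 6 arrays, and the replicate block. With the spike set as a block 7 were called, where all genes called went from 3240 to 4363. ZDHHC14 was called under all 14 refits and all 9 omissions.

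The 6 member probe sets called became 3 with median centring, 2 without trend, 10 with array weights, 1 in the lower spike set and 2 with the fold rule, and 1 to 6 with an array left out (2 without DMSO replicate 2, 3 without 1.0 µM replicate 2, 1 without 1.0 µM replicate 3). Among list genes 45 calls became 75 with array weights, 68 with the spike block and 20 with the fold rule, and 30 to 52 with an array left out; these refits of the lists were added after seeing the data. All genes called went from 3240 to 1788 with the fold rule and 2343 to 3329 with an array left out.

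At 0.1 µM against DMSO 0 members became 1 with the mean of probe sets and 3 with array weights, and 0 to 2 with an array left out (2 without DMSO replicate 3, 1 without 1.0 µM replicate 2). Member probe sets became 1 with array weights and 0 to 1 with an array left out. All genes went from 1674 to 324 in the lower spike set, 924 with the fold rule, and 843 to 2003 with an array left out (fewest without 0.1 µM replicate 3).

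Between the doses 0 members became 2 with array weights and 0 to 1 with an array left out, and probe sets 1 with array weights and 0 to 1. All genes called, 114, became 67 without the filter, 174 with quantile normalization, 51 with median centring and 23 without trend. They became 65 with only 6 arrays, 1953 with array weights, 256 with the spike block, and 11 to 186 with an array left out (fewest without 1.0 µM replicate 3). The count in the lower spike set is left out here for the same reason as above. With the replicate block 23 genes were called between the doses, while the count of members called stayed at 5, 0 and 0 in the 3 comparisons. Numbers pair no cultures in the labels, and 0 of 9 arrays lay closest to an array of its own number.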
